A study of Mus with 9 samples.

Results

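The GABA-A receptor is the chloride channel through which GABA, the main inhibitory transmitter of the brain, quiets neurons quickly. Each receptor is a ring of subunits drawn from several families, and the alpha subunit it carries goes a long way to set where the receptor sits and how it answers to GABA and to drugs. Receptors with alpha2 or alpha3 are found mainly at synapses, where they give brief phasic inhibition. Receptors with alpha4 and delta lie outside the synapse and carry tonic inhibition, most of all in granule cells of the dentate gyrus, and alpha5, which is abundant in the hippocampus, is found largely outside the synapse as well. Beta subunits are needed to build almost every receptor, synaptic or not.

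Of the 22206 probe sets listed for the Clariom S Mouse array, 7 were taken by gene symbol: Gabra2, Gabra3, Gabra4, Gabra5, Gabrb1, Gabrb2 and Gabrd. All 7 genes have 1 probe set each. Hippocampal RNA came from 9 mice, 3 in each of 3 groups: SAMR1 mice, which age normally, SAMP8 mice, a strain with accelerated senescence and early memory decline, and TG-treated SAMP8 mice. TG (trigonelline, a plant alkaloid of coffee and fenugreek) was dosed orally (5 mg/kg daily, 30 days), the other groups received vehicle (water in the methods, saline in the sample records), and every group then went through 8 days of water maze testing, during which TG was continued. The methods give the SAMP8 mice as male and 16 weeks old, with no sex or age for SAMR1, and all mice were housed singly. The hippocampus was taken later, after acclimatization, dosing and testing, and the age at that time is not stated. They name no transgene or deletion in any group. SAMP8 and SAMR1 are separate inbred strains, so a difference between them cannot be told apart from other strain differences. A free-text note in the sample records speaks of a macrophage cell line, against the tissue field and the titles, and was not used.

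The deposited tables hold 1 average per group and probe set, as log2 signal, which is the authors' mean over the arrays of the group. The spread between arrays cannot be had from these averages, values per array were not analysed here and no test between groups was run, so every difference below is a description of group averages. The averages are given to 0.01, so that a difference of averages carries a rounding error of up to 0.01. A probe set is called here when its group averages differ by at least 1.5-fold, and a lower limit of 1.2-fold was read beside it. Differences are on the log2 scale unless given as folds. The averages of all probe sets spanned 2.39 to 19.93, and their median was 6.09 for SAMR1, 6.04 for SAMP8 and 6.07 for the TG-treated mice. Signal differs between probes for reasons other than RNA amount, so levels were not compared between subunits as amounts of RNA, and the rank of a probe set by signal is given only to say how bright it is. In whole hippocampus, fewer cells of a type and less RNA per cell cannot be told apart.

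The subunit genes lie in clusters in the mouse genome (positions from the RefSeq annotation of GRCm38, the build of the array annotation). Gabra2 (chromosome 5, 70958392 to 71095849), Gabra4 (71569734 to 71658308) and Gabrb1 (71657921 to 72149572) share 1 cluster, in which Gabra2 and Gabra4 are 474 kb apart and the annotated ends of Gabra4 and Gabrb1 overlap by 388 bases. Gabra5 lies on chromosome 7 from 57407669 to 57591016, Gabrb2 on chromosome 11 from 42419515 to 42632591 and Gabra3 on chromosome X from 72432676 to 72656919. Gabrd stands alone on chromosome 4 from 155384979 to 155398098, and its annotated span runs into that of Cfap74. At 13.1 kb Gabrd is the shortest of these genes, whereas the others span from 88.6 kb (Gabra4) to 492 kb (Gabrb1).

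Of the synaptic alpha subunits, Gabra2 averaged 14.11 for SAMR1, 14.19 for SAMP8 and 13.46 for the TG-treated mice. The nontreated strains were thus close to each other, and the TG-treated group stood lowest, by 1.66-fold against nontreated SAMP8. The directions given here are those of the deposited column headings. For Gabra2 and Gabra4 the study's own text gives the opposite direction with TG, a conflict that was not resolved here. The same holds for Tnfrsf14, which averaged 6.54 in nontreated SAMP8 and 6.80 with TG. For Dbi (8.48 and 9.63) and Prkcd (11.03 and 9.53, same order of groups) the direction matches the study's lists of most changed genes. Gabra3 averaged 9.81 for SAMR1, 9.85 for SAMP8 and 9.27 for the TG-treated mice. It had the same order of groups as Gabra2, with a TG-treated average 1.49-fold below that of nontreated SAMP8, a size just short of the limit for a call and within rounding of it.

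The extrasynaptic subunits did not share 1 pattern. Gabra4, the partner of delta in forebrain tonic receptors, averaged 10.76 for SAMR1, 11.20 for SAMP8 and 10.57 for the TG-treated mice, so that SAMP8 stood 1.36-fold above SAMR1 and the TG-treated group 1.55-fold below nontreated SAMP8. Gabra5 averaged 15.35 for SAMR1, 16.04 for SAMP8 and 15.72 for the TG-treated mice. Its SAMP8 average was 1.61-fold above that of SAMR1, and the TG-treated average lay between the others, 1.25-fold below nontreated SAMP8 and 1.29-fold above SAMR1. Gabrd, which codes for the delta subunit, averaged 5.09 for SAMR1, 5.17 for SAMP8 and 5.47 for the TG-treated mice. Gabrd was the only one of the 7 genes with its highest average in the TG-treated group, 1.23-fold above nontreated SAMP8 and 1.30-fold above SAMR1. Its signal is low, with 39.5% of all probe sets dimmer, whereas at least 81.5% were dimmer for each of the other members.

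The beta subunits differed with TG by less than the alpha2, alpha3 and alpha4 genes. Gabrb1 averaged 11.95 for SAMR1, 12.41 for SAMP8 and 12.11 for the TG-treated mice, and Gabrb2 averaged 14.58, 14.67 and 14.42 in the same order of groups. SAMP8 was the highest group for both, by 1.38-fold over SAMR1 for Gabrb1 and by 1.06-fold for Gabrb2. In the TG-treated group Gabrb1 was 1.23-fold and Gabrb2 1.19-fold lower than in nontreated SAMP8.

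**Figure D1:**
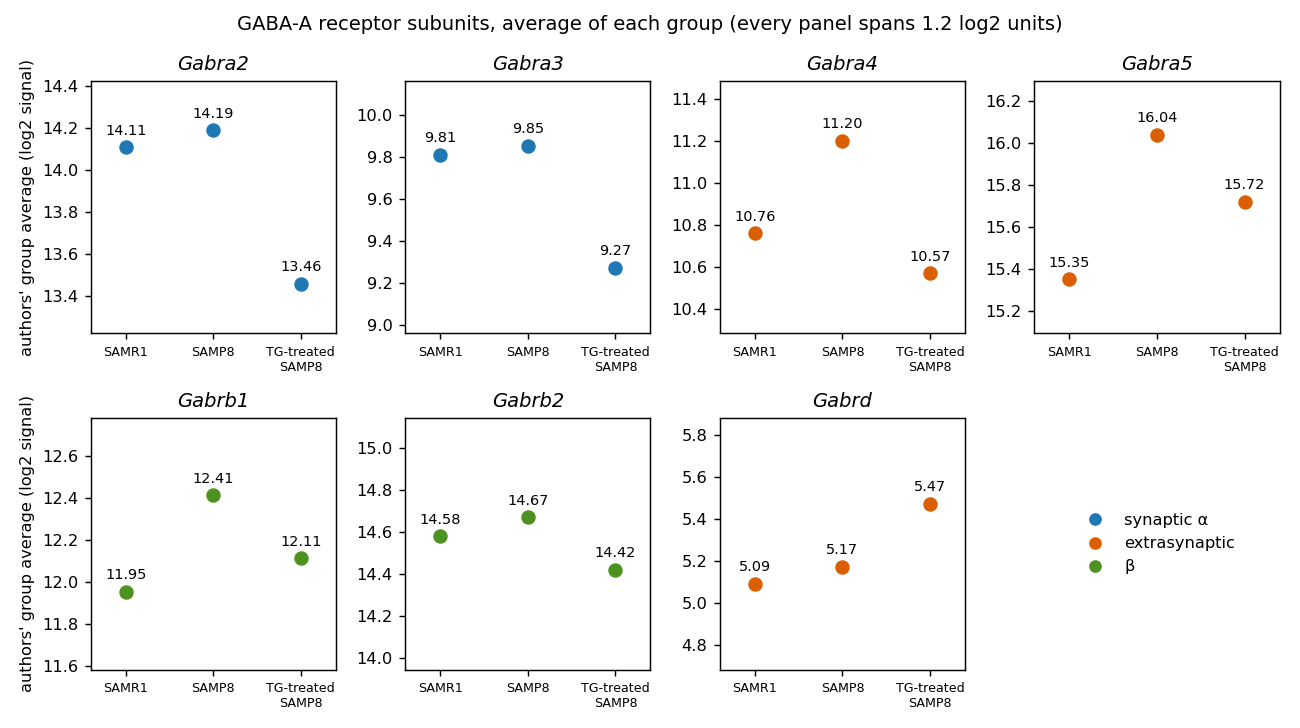
Authors' group average (log2 signal) of each subunit in SAMR1, SAMP8 and TG-treated SAMP8, with 1 point per group, no error bars and every panel spanning 1.2 log2 units around its own centre. SAMP8 was the highest group for 6 of the 7 genes as deposited, and the TG-treated group was the highest for Gabrd; relative to probe sets of like signal, the small SAMP8 excess of Gabra2 and Gabra3 over SAMR1 changed sign.

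The comparison of nontreated SAMP8 with SAMR1 asks how the strains differ. On the log2 scale, the differences of the 7 members ran from 0.04 (Gabra3) to 0.69 (Gabra5), with a median of 0.09 against 0.00 over all probe sets. Only Gabra5 passed 1.5-fold upward, while 5% of all probe sets did so, and 0 members passed it downward, against 6.08% of all probe sets. At 1.2-fold, Gabra4, Gabra5 and Gabrb1 were higher in SAMP8 (20.4% of all probe sets) and 0 members were lower (20.4%). By role, the extrasynaptic Gabra4 and Gabra5 differed by 0.44 and 0.69 and Gabrd by 0.08, the synaptic Gabra2 and Gabra3 by 0.08 and 0.04, and the beta genes Gabrb1 and Gabrb2 by 0.46 and 0.09. The differences therefore fell into a higher set (Gabra4, Gabra5 and Gabrb1) and a set near 0 that held members of every role.

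The size of the signal moved with this comparison. Probe sets in the brightest 5 of 20 classes of signal had median differences of 0.09 to 0.14 between SAMP8 and SAMR1, and the class of Gabrd had a median of -0.09. In its own class of about 1110 probe sets, Gabra5 was higher than 97.6%, Gabrb1 than 87.3% and Gabra4 than 85.0%. Gabrb2, Gabra2 and Gabra3 stood at 49.5%, 48.1% and 34.1%, near or below the middle of their classes. Gabrd stood at 70.7% of its class. Taken relative to the median of the class, Gabra2 and Gabra3 were no longer above SAMR1 (log2 differences of -0.01 and -0.10), Gabrb2 was at 0.00 and Gabra5 stood at 0.60. Relative to probe sets of like signal and length, Gabra5 stood at 0.56, below 1.5-fold, so that its call was lost.

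In the comparison of TG-treated with nontreated SAMP8 mice, which asks what differed with TG within the strain, 6 of the 7 members had the lower average with TG. The log2 differences were -0.73 for Gabra2, -0.63 for Gabra4, -0.58 for Gabra3, -0.32 for Gabra5, -0.30 for Gabrb1 and -0.25 for Gabrb2, and Gabrd differed by 0.30. The median of the members was -0.32, against 0.01 over all probe sets, of which 48.3% were below 0. Gabra2 and Gabra4 passed 1.5-fold downward, while 3.74% of all probe sets did, and 0 members passed it upward (4.48% of all probe sets). The call of Gabra4 was lost relative to signal classes (-0.55) and after quantile normalization (-0.56), and with each group centred on its median Gabra3 passed as well (-0.61). At 1.2-fold, Gabra2, Gabra3, Gabra4, Gabra5 and Gabrb1 were lower (18.5% of all probe sets) and Gabrd was higher (19.6%). Within their classes of signal, only 1.5% of the probe sets lay below Gabra2, 5.0% below Gabra4 and 6.9% below Gabra3. Gabra5, Gabrb1 and Gabrb2 had 17.8%, 23.6% and 23.7% below them, and Gabrd had 79.6% below it.

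**Figure D2:**
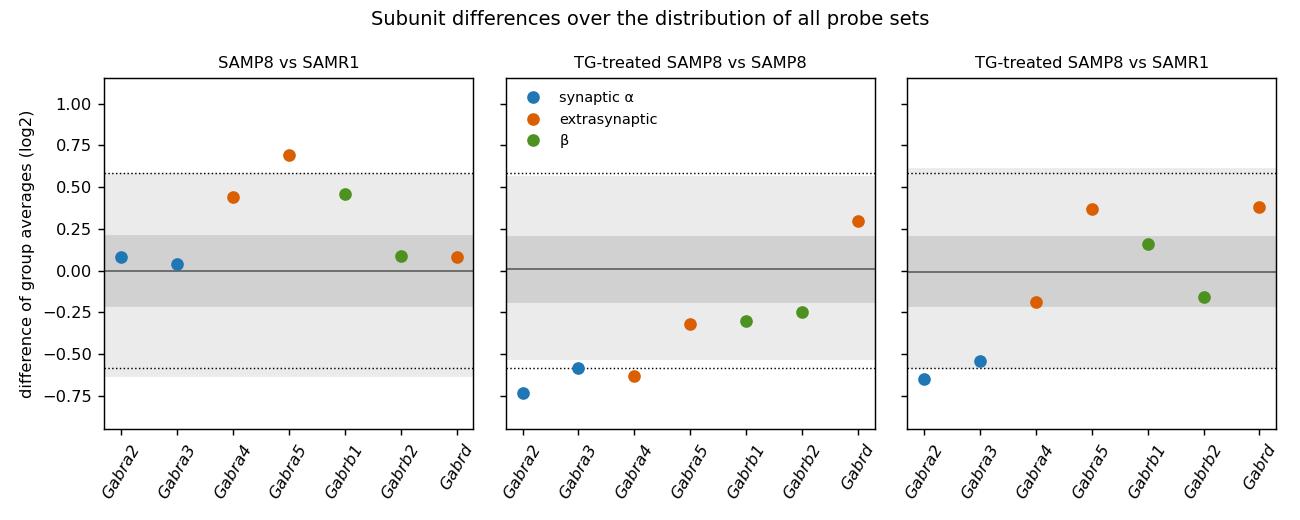
Difference of the authors' group averages (log2) for each subunit in the 3 comparisons. Grey bands hold the middle 50% and 90% of all probe sets, the grey line is their median and dotted lines mark 1.5-fold; Gabra5 lies above the upper line in SAMP8 vs SAMR1, and Gabra2 and Gabra4 lie below the lower line with TG.

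The genomic length of a gene moved with the TG comparison across the array. Probe sets with a single symbol and an annotated length (20763, or 93.5% of all) were divided into 5 classes of length. The median log2 difference with TG was 0.09 in the class of the shortest genes and -0.10 in the class of the longest, which holds genes of 58.4 kb or more. Among the brightest 20% of probe sets the same medians were 0.32 and -0.16. All members but Gabrd were both in the brightest 20% and in the longest class, where 36.5% of 1472 probe sets were lower with TG by 1.2-fold and 8.2% by 1.5-fold. Relative to the probe sets of like signal and length, the TG differences were -0.57 for Gabra2, -0.47 for Gabra4, -0.42 for Gabra3, -0.16 for Gabra5, -0.14 for Gabrb1 and -0.09 for Gabrb2, and 0.24 for Gabrd. Every member thus kept its sign, and 0 members passed 1.5-fold. The part of length or signal in these differences was not tested.

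**Figure D3:**
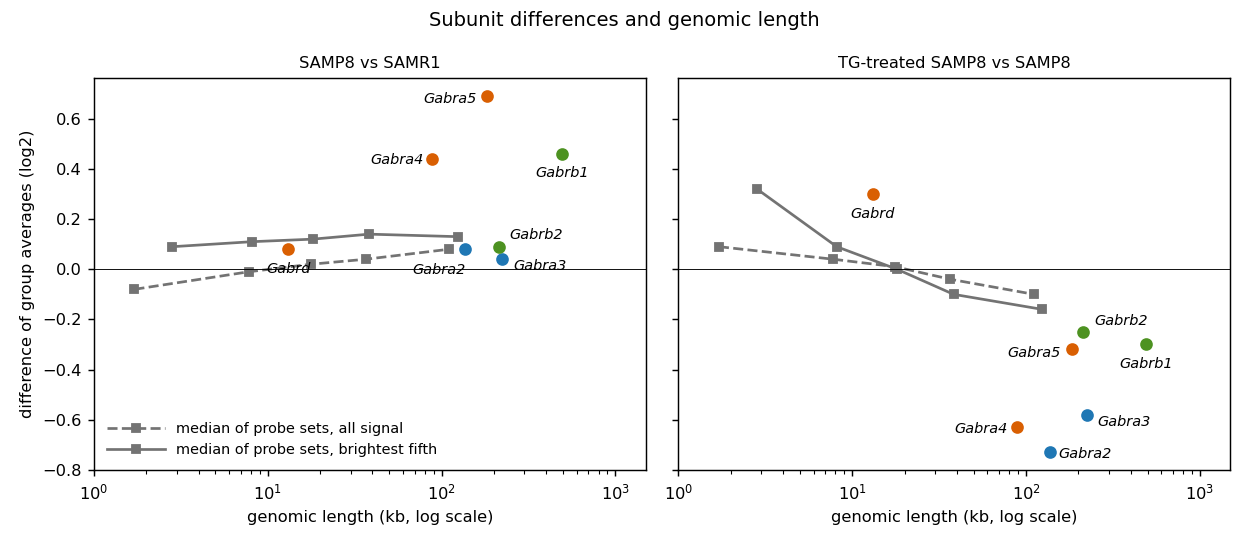
Difference of group averages (log2) of each subunit against the genomic length of its gene (kb, log axis), with grey squares at the median of all probe sets (dashed) and of the brightest 20% (solid) in 5 classes of length. With TG the medians of the bright probe sets go from 0.32 in the shortest class to -0.16 in the longest, and Gabra2, Gabra3 and Gabra4 lie farthest below that line.

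The order of the groups was compared as well. SAMP8 was the highest group for 6 members as deposited, compared with 32.2% of all probe sets, 44.0% of the brightest 20% and 55.0% of those that were also in the longest class. Both comparisons share the SAMP8 arrays, so a high SAMP8 average alone gives this order, and the signs of the smallest differences depend on scaling as given above.

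TG-treated SAMP8 was also set beside SAMR1, to ask how far the treated group stood from the normally aging strain. The SAMP8 columns of both tables are identical, with 0 of 22206 averages differing, which is why their other columns were compared directly. Gabra2 and Gabra3 were lower in the TG-treated group than in SAMR1, with log2 differences of -0.65 and -0.54. Gabra5 and Gabrd were higher, by 0.37 and 0.38, and Gabrb1 was higher by 0.16. The differences of Gabra4 and Gabrb2 were -0.19 and -0.16. Gabra2 alone passed 1.5-fold, downward (4.83% of all probe sets), and 0 members passed it upward (5.62%). At 1.2-fold, Gabra2 and Gabra3 were lower (20.5% of all probe sets) and Gabra5 and Gabrd were higher (20%). The median of the members was -0.16, against -0.01 over all probe sets.

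Differences between 2 subunits do not depend on the centring of the arrays, and they show how unequal the subunits were. Between SAMP8 and SAMR1, the log2 difference of Gabra2 minus that of Gabra5 was -0.61, and Gabra3 minus Gabra5 gave -0.65. With TG, Gabra4 was shifted against its extrasynaptic partner Gabrd by -0.93 and Gabra2 against Gabrd by -1.03. Both values rest on the dim Gabrd probe set, which was not shown to be above background. Gabra2 and Gabra3 stayed within 0.15 of each other in all 3 comparisons, and Gabra4 and Gabrb1, whose annotated ends overlap, differed by -0.02 between the strains and by -0.33 with TG (Gabra4 minus Gabrb1).

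The other GABA-A subunits were read from a list of 12 genes. With TG, 9 of these had the lower average and 3 the higher one, with a median of -0.17, and 1 of them passed 1.5-fold downward (3.74% of all probe sets). This was Gabrg1, a gamma subunit gene of the chromosome 5 cluster, with averages of 8.40 for SAMR1, 8.41 for SAMP8 and 7.79 for the TG-treated mice. Gabra6, known from cerebellar granule cells, had averages of 3.14, 3.76 and 3.52 in the same order, with only 6.4% of all probe sets dimmer.

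The genes that make, pack, take up and break down GABA numbered 9, and all 9 had lower averages with TG, with log2 differences from -0.43 to -0.12 and a median of -0.20, with 0 past 1.5-fold. Gad2, an enzyme that makes GABA, averaged 11.04 for SAMR1, 10.83 for SAMP8 and 10.40 for the TG-treated mice. Of 15 scaffold and trafficking genes, 10 were lower with TG and 5 higher, and the lowest was Trak1, an adaptor for transport along microtubules, with averages of 11.34 in SAMP8 and 10.73 with TG. The GABA-B receptor genes Gabbr1 and Gabbr2, which code for the slower metabotropic receptor, differed by -0.34 and -0.25. Of the chloride transporters that set the driving force for GABA, Slc12a2, the importer, differed by -0.51 with TG and Slc12a5, the exporter, by 0.41. Dbi, which codes for a peptide that acts at the benzodiazepine site of the receptor, averaged 9.09 for SAMR1, 8.48 for SAMP8 and 9.63 with TG. Srd5a1, an enzyme of neurosteroid synthesis, averaged 5.13, 5.87 and 5.29 in the same order. Over all 44 genes of these lists, 34 were lower with TG and 10 higher, with a median of -0.20. Between SAMP8 and SAMR1, 35 were higher and 9 lower, with a median of 0.17. Over all probe sets, 48.3% were lower with TG and 49.5% higher between the strains, and among the brightest 20% these shares were 58.1% and 67.3%.

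**Figure D4:**
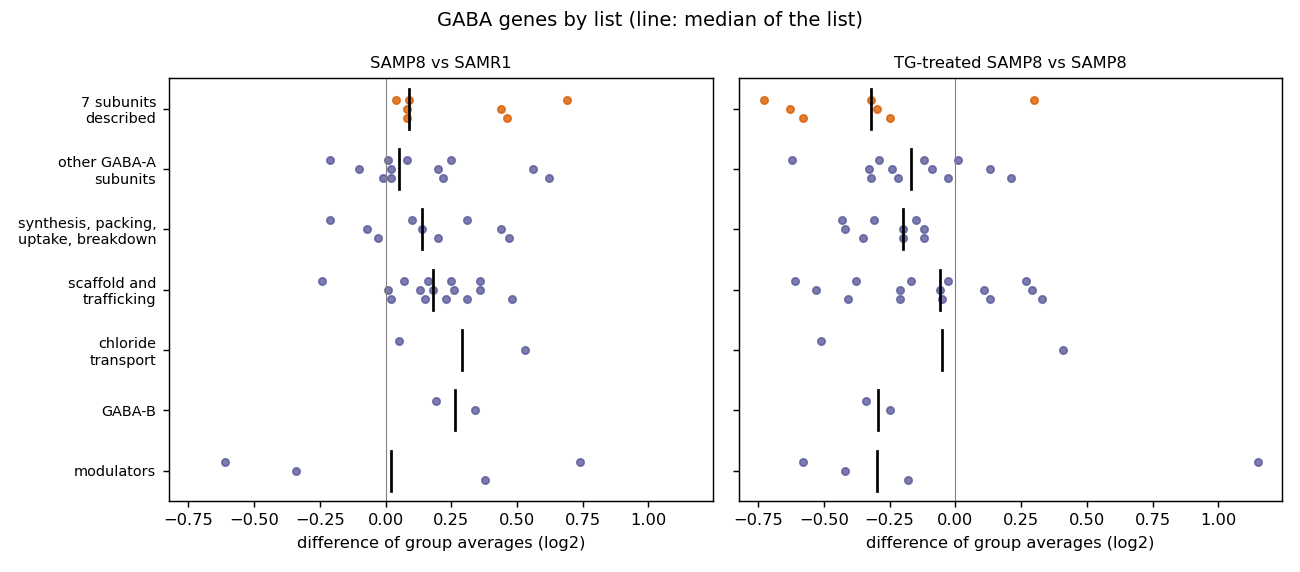
Difference of group averages (log2) of the 7 subunits (orange) and of 44 other GABA genes (violet) by list, with a black line at the median of each list; small vertical offsets only separate points. With TG the medians were -0.32 for the 7 subunits and -0.20 for the 9 genes of GABA synthesis, packing, uptake and breakdown.

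Genes within 1 Mb of the members were looked at for shared regional shifts. Around the chromosome 5 cluster, 15 other probe sets, Gabrg1 among them, had a median difference of -0.05 with TG and -0.06 between SAMP8 and SAMR1. Of these 15 probe sets, 9 were lower with TG. Cox7b2, which lies between Gabra2 and Gabra4, was 0.71 higher with TG on the log2 scale, opposite to Gabra2, Gabra4, Gabrb1 and Gabrg1. Its signal is low, with averages of 5.83 for SAMR1, 5.29 for SAMP8 and 6.00 for the TG-treated mice. Around Gabra5, 4 probe sets had medians of 0.14 between the strains and -0.04 with TG. Around Gabrb2, 9 probe sets had medians of 0.20 and -0.15, around Gabra3 37 had 0.10 and -0.09, and around Gabrd 56 had 0.04 and -0.02, in the same order of comparisons. Cfap74, whose annotated span overlaps that of Gabrd, differed by -0.44 with TG, opposite in sign to Gabrd.

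The genes most like the extreme members were found by the distance between their pairs of log2 differences (between the strains, and with TG) among 10052 named probe sets with a mean signal of at least 6. Nearest to Gabra5 were Bcan (distance 0.01), Khdrbs2 (0.02) and Zfp97 (0.02). Nearest to Gabra2 were Slc22a8 (distance 0.02) and Vmn1r100 and Vmn1r148 (0.0224 each, with identical averages). These distances rest on 3 group averages, and 18 probe sets lay within 0.05 of Gabra5 and 12 within 0.05 of Gabra2.

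Marker genes of hippocampal cells and of nearby tissue were read beside the subunits. The neuronal markers Syp and Syt1 were listed at 19.93 and 19.70 in all 3 groups, the former at the top of the scale, and had differences of 0. The other neuronal markers differed in both directions between the strains, with Map2 at -0.66, Rbfox3 at 0.11, Snap25 at 0.31 and Tubb3 at 0.51, and with TG they differed by 0.05, 0.21, -0.17 and 0.26 in the same order. The 5 dentate gyrus markers had a mean average of 8.00 for SAMR1, 8.32 for SAMP8 and 8.06 for the TG-treated mice, and with TG 3 of 5 were lower, among them Prox1, the regulator that defines granule cells, with a log2 difference of -0.85. The mean of the 10 interneuron markers was 9.20, 9.28 and 9.50 in the same order of groups, although 6 of 10 were lower in SAMP8 than in SAMR1 (median -0.11) and Vip, at 1.46, was the farthest above 0. With TG 6 of 10 were higher, 3 were lower and 1 was equal. Among these, Pvalb differed by 0.83, Vip by 0.74 and Sst by 0.69, whereas Gad2, Gad1 and Calb2 differed by -0.43, -0.35 and -0.31 (Gad1 and Gad2 are also among the GABA synthesis genes above). The 5 thalamic markers averaged 7.25, 7.75 and 7.22, and 4 of 5 were lower with TG, with a median difference of -0.13. Prkcd (-1.50) and Plekhg1 (-1.06) were lower by far more than that median. All 5 astrocyte markers had a higher average for SAMP8 than for SAMR1 (median difference 0.62), and their means were 10.18, 10.73 and 10.52. All 4 endothelial markers were higher in SAMP8 than in SAMR1 (median difference 0.54) and lower with TG (median -0.28), with means of 8.08, 8.57 and 8.14. SAMP8 had the highest mean in 9 of the 13 marker lists, those of dentate gyrus, thalamus, astrocytes and endothelium included. The part of these cell types in the subunit differences was not tested. Over the 13 marker lists, the medians ran from -0.27 (meninges) to 0.62 (astrocytes) between the strains and from -0.31 (microglia) to 0.36 (oligodendrocytes) with TG.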

How the data were processed

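Hippocampal RNA of 9 mice, 3 per group, was hybridized to Clariom S Mouse arrays. Arrays were grouped by sample title. The authors normalized and summarized the arrays by SST-RMA in the Transcriptome Analysis Console (4.0.1 in the series text, 4.0.2 in the methods). The deposited tables hold group averages as log2 signal. They also hold the authors' own fold changes, p-values and adjusted p-values for each comparison, which were not used. Values per array were not analysed here, so the number of arrays limits the precision, and no test was run.

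Group averages were subtracted for 3 comparisons. A call is a difference of at least 1.5-fold, with 1.2-fold beside it. Members were matched by gene symbol. Signal classes are 20 equal classes of the mean of the 3 averages. Genomic length is the span in the RefSeq annotation of GRCm38.p6, introns included, and transcript length was not used. Genes named besides the members are those of 6 GABA lists past 1.5-fold in any comparison (at most 12), the 3 genes nearest in pattern to each extreme member, and markers. Gabbr1, Gabbr2, Slc12a2, Slc12a5, Cox7b2, Cfap74, Tnfrsf14 and the single markers fall outside this rule and were picked with their values known. Some listed genes are not reported here by name. The members and lists were chosen with earlier results of these data known. The steps for calls and class-relative differences were also tried on simulated data, and no value given here comes from them. Alternatives were other fold limits, centring, signal classes, quantile normalization, a filter on dim probe sets, and classes of signal and length, the last chosen after seeing the data. Python 3.11.15, numpy 2.4.6, pandas 2.3.3 and matplotlib 3.10.9 were used.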

Additional observations from a re-analysis of the deposited data

How the results depend on the processing

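A value was taken to have moved when it changed by at least 0.1 on the log2 scale, or a count by over 1.5 times. In the order SAMP8 vs SAMR1, TG-treated SAMP8 vs SAMP8 and TG-treated SAMP8 vs SAMR1, 1, 2 and 1 members passed 1.5-fold. These became 3, 7 and 7 at 1.1-fold, 3, 6 and 4 at 1.2-fold and 0, 0 and 0 at 2-fold. At 1.1-fold, 3 were higher and 0 lower, 1 higher and 6 lower, and 3 higher and 4 lower, in that order. The share of all probe sets is given here only for 1.5-fold and 1.2-fold. The counts at 1.1-fold and 2-fold have no such share beside them and are not read as a result about the members. Relative to classes of signal, the counts for the comparisons with TG were 1 and 2, and quantile normalization of the averages also gave 1 and 2 (Gabra4 lost its call with TG vs SAMP8 under both), whereas centring gave 3 with TG vs SAMP8 (Gabra3 added). Relative to classes of signal and length, 0 members passed in SAMP8 vs SAMR1 (Gabra5 lost its call) and 0 with TG vs SAMP8 (Gabra2 and Gabra4 lost theirs), and the median with TG moved from -0.32 to -0.16. Between the strains, quantile normalization moved the median of the members from 0.09 to 0.20. There the median of the synaptic alpha subunits moved from 0.06 to -0.06 relative to signal classes and to -0.08 after quantile normalization, that of the extrasynaptic subunits from 0.44 to 0.31 under both, and that of the beta subunits from 0.28 to 0.17 relative to signal classes. Centring each group on its median moved none of the 21 member differences by 0.1. Leaving out the dimmest 25% of probe sets was run only on the array-wide median and on the share past 1.5-fold in either direction, and moved neither by these limits in the 3 comparisons. With TG vs SAMP8, all 7 members kept their sign under every scaling listed here; between the strains 4 of 7 did relative to signal classes. Each gene has 1 probe set, so no other choice of probe set was possible, and replicates could not be left out of averages. No paired analysis was possible because the columns used here are group averages and carry no replicate number.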
